A study of Coprinopsis cinerea AmutBmut pab1-1 with 201 samples.

Results

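The response of Coprinopsis cinerea mycelium to congo red, a dye that stresses the cell wall, was measured in 6 libraries of a series with 67 groups of 3 libraries each. The members were taken from the library titles: the 3 libraries of cultures kept for 3 h in 1% congo red, and the 3 libraries of the liquid control that those titles name for them. No measured value entered the choice. Every library of the series came from the strain AmutBmut pab1-1 of this inky cap mushroom, which carries mutations in both mating type factors and fruits without a partner. The groups of the series reach from spore germination to early fruiting, starvation and stress. RNA was read by 3′ end sequencing, in which each transcript gives reads near its poly(A) tail, so that counts of different genes can be set side by side with no correction for length.

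The liquid control also serves 4 other treatments of the same strain, which were used here for comparison. These were 3 h in 1 mM hydrogen peroxide, 3 h of acidic stress (library name pH 4), 3 h of alkaline stress (library name pH 9) and 2 h in 10% sorbitol, an osmotic stress. All 6 groups carry the tissue label of vegetative mycelium, which could not be checked against named marker genes because the deposited identifiers come without names. The age of the cultures, the medium and the amount of mycelium per culture are not stated in the labels. Nothing states that replicates came from separate cultures, so each p-value measures only the spread between these libraries, which may be technical.

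The wall of a filamentous mushroom is a layered mesh in which chitin and beta-glucan carry the load, with mannoproteins and other polysaccharides around them. Congo red binds to such beta-linked chains and keeps newly made fibrils from assembling, which weakens the wall where hyphae grow. In Saccharomyces cerevisiae a damaged wall is sensed at the plasma membrane by proteins such as Wsc1 and Mid2, and the signal passes through Rho1 and Pkc1 to the MAP kinase Slt2, which raises genes of wall synthesis. Sorbitol in the medium is widely used to relieve weak walls because it lowers the turgor that they must bear, and at high levels it is an osmotic stress of its own. Which Coprinopsis genes belong to these pathways could not be read from the identifiers, so genes are described below by position, structure and behaviour.

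Total counts were 11899353, 12043193 and 10631544 in the congo red libraries and 14943816, 9069076 and 12899628 in the control libraries, within the range of 9025082 to 16650382 of all 18 liquid libraries. On the log2 scale of CPM, counts scaled to a common library size,, Pearson's r between pairs of congo red libraries was 0.955 to 0.979, between pairs of control libraries 0.959 to 0.982, and between a congo red and a control library 0.927 to 0.959. These coefficients run across genes, which are not independent replicates. Congo red replicate 2 had the highest r of the 3 with control replicates 1 and 3 (0.952 and 0.959) and the lowest with control replicate 2 (0.927). On the fourth principal component, which held 7.6% of the variance, the congo red libraries scored -39.98, -24.48 and -50.61, and the other 15 libraries lay between -7.6 and 23.73. On the second component, with 20.9% of the variance, congo red scored -23.83, -5.95 and -25.92, between the control at 9.96 to 18.66 and sorbitol at -66.3 to -54.4. On the first component, with 27.7% of the variance, congo red scored 3.05, -4.42 and 2.37, above the control at -46.02 to -34.73. Sorbitol at 15.38 to 31.92 and peroxide at 54.02 to 87.44 lay further out on that side, and acid at -28.44 to -9.13 lay nearer the control. Thus components 1 and 2 placed congo red on the sorbitol side of the control, component 1 also on the peroxide side. The smaller component 4 separated congo red from sorbitol and from all other liquid libraries. The labels give no batch or date for these libraries.

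**Figure D1:**
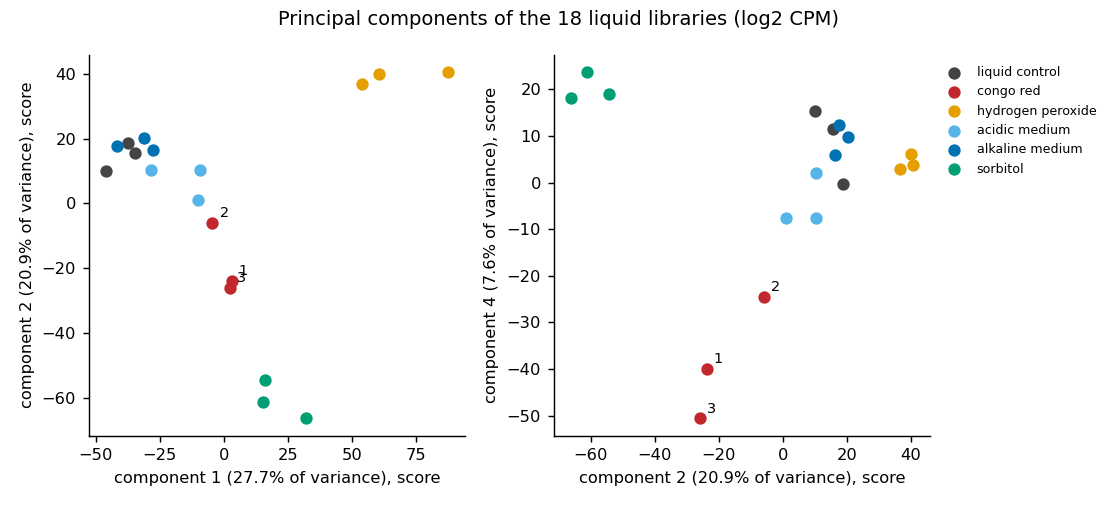
Scores of the 18 liquid libraries on principal components 1 and 2 (left) and 2 and 4 (right) of log2 CPM, with the share of variance on each axis. Points are libraries, coloured by group, and the 3 congo red libraries carry their replicate numbers. On component 4 the congo red libraries sit between -50.61 and -24.48, below every other liquid library, and replicate 2 is the nearest to them.

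Congo red moved fewer than 1 in 10 of the measured genes, and more genes rose than fell. Of 10981 genes tested, 578 (5.26%) rose and 336 (3.06%) fell, 914 (8.32%) in all, at a Benjamini-Hochberg adjusted p under 0.05 in edgeR's quasi-likelihood test and a fold of 2 or more. The rises were also the larger changes. Raised genes had a median log2 change of 1.7, and 211 of them rose 4-fold or more, 25 of these 16-fold or more. Lowered genes had a median log2 change of -1.32, with 47 past a fold of 4 and 3 past a fold of 16. The median over all tested genes was 0.0457. With each of the 6 libraries left out in turn the calls numbered 696 to 1040, and the highest count came without congo red replicate 2. In bulk libraries, fewer cells of a type and less RNA per cell cannot be told apart.

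Raised genes started from a lower level than lowered genes at the median. The median raised gene went from 5.76 to 21.6 CPM and the median lowered gene from 38.9 to 16.1 CPM. The values of the 3 congo red libraries lay outside those of the control for 537 of the 578 raised genes (92.9%), beside 15.6% of all tested genes whose congo red values all lay above the control. They lay outside for 316 of the 336 lowered genes (94.0%), beside 12.4% of all tested genes whose values all lay below it. Since the call itself favours groups that do not overlap, nothing is read from these shares.

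**Figure D2:**
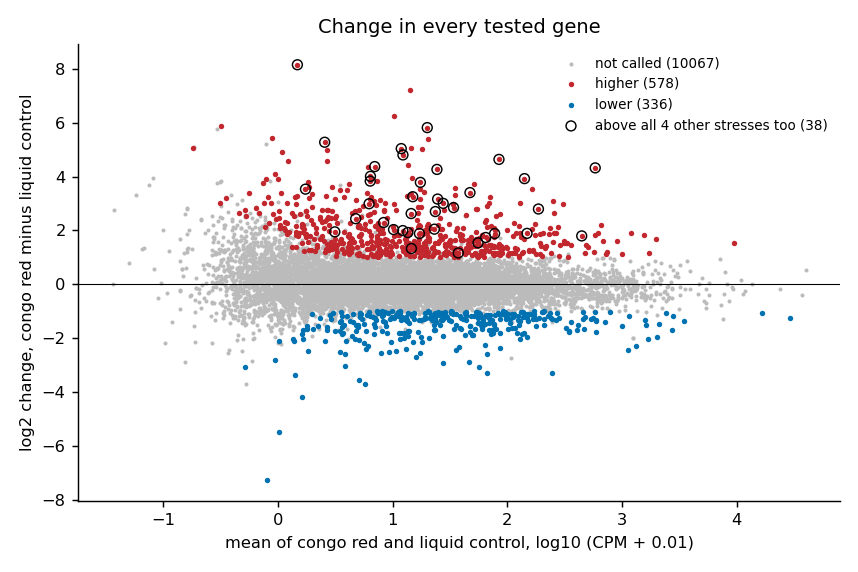
Log2 change under congo red against the liquid control (y axis) by mean level in the 6 libraries, as log10 of CPM + 0.01 (x axis). Each point is 1 of 10981 tested genes; red points are the 578 called higher, blue points the 336 called lower, and circles the 38 that were also above each of 4 other stresses. Rises reach further from 0 than falls, and the most abundant called genes lie below 0.

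Transcripts of the lowered genes took up a large part of the control's RNA. Summed over the 336 genes they came to 135666, 157337 and 110707 CPM in the control libraries and to 52931, 55706 and 53066 CPM under congo red, a mean of 134570 ± 23335 against 53901 ± 1565 CPM (SD, n = 3 each). The 578 raised genes summed to 20007, 24556 and 23159 CPM in the control and to 71142, 57849 and 78038 CPM under congo red, a mean of 22574 ± 2331 against 69010 ± 10262 CPM (SD, n = 3 each). The sums of the 2 groups did not overlap in either list, as the choice of the genes by this contrast already fixed. Congo red replicate 2 had the smallest sum of raised genes and the largest sum of lowered genes. Relative to the control mean, the median raised gene stood at 1.49, 1.12 and 1.58 on the scale of log2(CPM + 1) in congo red replicates 1, 2 and 3, and the median lowered gene at -1.29, -1.22 and -1.25. Replicate 2 was the congo red library nearest to the control for 382 of the 578 raised genes and for 143 of the 336 lowered genes. The weaker position of replicate 2 thus concerned the rises more than the falls.

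Much of the loss came from a pair of very abundant neighbouring genes on scaffold 10. The gene at 1048707 to 1049347 (minus strand, 3 exons, coordinates of the authors' CopciAB V2 annotation) held 40250, 46620 and 35900 CPM in the control and 17670, 20340 and 13900 CPM under congo red. Its log2 change was -1.24 ± 0.22 (SE), with an adjusted p of 0.000803 in edgeR's quasi-likelihood test, and its values did not overlap. The gene beside it, at 1047231 to 1048004 on the same strand, held 21640, 27090 and 18480 CPM in the control and 10400, 11580 and 9764 CPM under congo red. Counts that were not whole numbers, which arise where reads are shared with another locus, made up 89.6% and 81.1% of the libraries' values of these genes. How reads were divided between copies is therefore uncertain, although all 3 control values lay above all 3 congo red values in both. Both were also low in peroxide, at means of 14620 and 11150 CPM, and in sorbitol, at 14070 and 9021 CPM. In alkali their means were 30040 and 11880 CPM, and congo red was not called apart from alkali for either. For the first gene only the limit of a 2-fold difference was missed. Its log2 difference, congo red minus alkali, was -0.80 ± 0.22 (SE), with an adjusted p of 0.0215 in edgeR's quasi-likelihood test. These and the next genes described by position were picked after their values were seen, by largest gain or loss of CPM or by smallest p.

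The largest gain of transcripts fell on 1 gene of scaffold 6, at 203405 to 204559 (plus strand, 4 exons). It held 3940, 3969 and 6716 CPM in the control and 10750, 15650 and 15470 CPM under congo red, a log2 change of 1.52 ± 0.28 (SE) with an adjusted p of 0.00109 in edgeR's quasi-likelihood test. No control value reached a congo red value. It shared reads as well, with 66.2% of its values not whole. Its mean was 3060 CPM in peroxide, 4640 in acid, 5963 in alkali and 7113 in sorbitol, so that congo red held the highest mean of the 6 liquid groups. In the direct contrasts congo red was called above peroxide, acid and alkali, but not above sorbitol. The log2 difference from sorbitol was 0.97 ± 0.28 (SE), with an adjusted p of 0.0212 in edgeR's quasi-likelihood test, so only the limit of a 2-fold difference was missed.

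A pair of neighbouring genes on scaffold 8 gave the next kind of gain, one that sorbitol exceeded. The gene at 468702 to 469315 held 575.9, 1526 and 681.1 CPM in the control, 3568, 1790 and 3658 CPM under congo red and a mean of 6863 CPM in sorbitol. The gene at 467406 to 468051, on the other strand, held 620.9, 1923 and 653.6 CPM in the control, 2848, 1539 and 2793 CPM under congo red and 6751 CPM in sorbitol. In the second gene the groups overlapped, since control replicate 2 lay above congo red replicate 2. For both genes congo red was called lower than sorbitol in the direct contrast.

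The smallest p of all belonged to a gene of moderate level on scaffold 1, at 1746281 to 1747283 (plus strand, 7 exons, coding length 492 bp). It held 55.96, 62.79 and 47.76 CPM in the control and 1242, 850.1 and 1245 CPM under congo red, a log2 change of 4.33 ± 0.22 (SE) with an adjusted p of 1.11e-10 in edgeR's quasi-likelihood test. Its 3 congo red values were far above the control and close to each other. The means of the other stresses were 126.3 CPM in peroxide, 186.4 in acid, 106.3 in alkali and 392.0 in sorbitol, and congo red was called above each of them. Against the shared control, peroxide, acid and sorbitol were themselves called higher for this gene.

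Among the lowered genes the smallest p fell on scaffold 8, at 1413064 to 1414720 (minus strand, 6 exons). The control held 355.2, 627.2 and 343.7 CPM and congo red 48.54, 37.14 and 49.14 CPM, a log2 change of -3.30 ± 0.27 (SE) with an adjusted p of 1.63e-07 in edgeR's quasi-likelihood test. Congo red fell to a level near that of sorbitol, with a mean of 28.61 CPM, and was called below peroxide (176.2 CPM), acid (392.3 CPM) and alkali (303.6 CPM). A raised gene on scaffold 7, at 2360483 to 2362932 (2 exons), showed the same pairing upwards. It was nearly silent in the control at 0.6108, 1.395 and 0.9319 CPM and reached 28.06, 42.87 and 46.78 CPM under congo red and a mean of 24.78 CPM in sorbitol. Its log2 change against the control was 5.39 ± 0.43 (SE), with an adjusted p of 1.44e-07 in edgeR's quasi-likelihood test, and congo red and sorbitol were not called apart.

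A further 6 genes were named by a rule that kept only genes with few shared reads, no overlap with another gene and no overlap between the groups' values. Against the control, CopciAB_410350.T0 (scaffold 6, 175482 to 176164, minus strand, 4 exons) had the largest fold. It was barely detected in the control, at 0.229, 0.1395 and 0.1553 CPM, and reached 49.18, 8.017 and 27.33 CPM under congo red. Its log2 change was 7.20 ± 1.00 (SE), with an adjusted p of 0.0002 in edgeR's quasi-likelihood test, an imprecise value because of the low control. Peroxide raised it further, to 57.79, 47.05 and 230.0 CPM, and the direct contrast of congo red minus peroxide was -1.99 ± 0.61 (SE) with an adjusted p of 0.0196 in edgeR's quasi-likelihood test. Sorbitol held 4.792, 6.455 and 10.64 CPM. Over the 67 groups of the series its mean was highest under calcium (200 mM for 24 h), at 3740 CPM on unscaled CPM, and congo red ranked 8 of 67.

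The second raised gene, CopciAB_378628.T0 (scaffold 2, 3697257 to 3698207, plus strand, 2 exons), held 0.3054, 1.116 and 0.7766 CPM in the control and 25.78, 4.908 and 38.29 CPM under congo red. Congo red replicate 2 was again the lowest of the 3, yet above every control value. The log2 change was 5.04 ± 0.75 (SE), with an adjusted p of 0.000223 in edgeR's quasi-likelihood test. Congo red was called above each of the 4 other stresses, although its replicate 2 lay below peroxide replicates 1 and 3, at 6.12 and 5.061 CPM. Peroxide was itself called above the control for this gene. Over the whole series only calcium had a higher mean than congo red, at 26.5 CPM beside 21.3 CPM.

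The lowered genes named by the rule differed in what the other stresses did. CopciAB_32009.T0 (scaffold 2, 3485924 to 3486761, plus strand, 4 exons) held 11.53, 10.88 and 9.707 CPM in the control and 0.3656, 1.473 and 0.5119 CPM under congo red. Its log2 change was -3.72 ± 0.43 (SE), with an adjusted p of 1.39e-05 in edgeR's quasi-likelihood test. Sorbitol held 1.7, 0.6565 and 0.4435 CPM, and congo red minus sorbitol was -0.26 ± 0.50 (SE) with an adjusted p of 0.796 in edgeR's quasi-likelihood test. Congo red was called below peroxide, acid and alkali, whose values lay between 4.856 and 13.71 CPM. CopciAB_225329.T0 (scaffold 10, 2245551 to 2246482, minus strand, 4 exons) went from 46.04, 60.84 and 72.3 CPM in the control to 13.62, 10.31 and 9.111 CPM under congo red. Its log2 change was -2.44 ± 0.26 (SE), with an adjusted p of 4.25e-06 in edgeR's quasi-likelihood test. Here congo red was called below acid (mean 35.74 CPM) and alkali (36.13 CPM), and not apart from peroxide (15.25 CPM) or sorbitol (17.37 CPM).

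Both other named genes had the largest folds against the mean of the 4 other stresses among the genes that met the rule. That contrast called 291 genes higher (2.65%) and 125 lower (1.14%) in congo red, and genes outside the rule had larger folds. Without congo red replicate 3 its calls fell from 416 to 254. No lower gene met the rule there. CopciAB_64123.T0 (scaffold 8, 1814195 to 1815452, minus strand, 2 exons) held 207.8, 79.27 and 199.2 CPM under congo red and 3.435, 14.23 and 2.873 CPM in the control. Its means were 1.889 CPM in peroxide, 20.47 in acid, 0.8818 in alkali and 6.9 in sorbitol, and no value of the other 15 liquid libraries reached the congo red values. The log2 difference from the mean of the 4 stresses was 5.37 ± 0.32 (SE), with an adjusted p of 9.88e-09 in edgeR's quasi-likelihood test. CopciAB_480395.T0 (scaffold 11, 854681 to 855614, plus strand, 2 exons) held 47.53, 44.99 and 54.05 CPM under congo red and 5.649, 10.05 and 3.029 CPM in the control. Its log2 difference from the 4 stresses was 4.10 ± 0.33 (SE), with an adjusted p of 3.11e-07 in edgeR's quasi-likelihood test, and this gene did not dip in congo red replicate 2. Over the whole series both had their highest mean where the mycelium had just met the mould Trichoderma, at 298 and 172 CPM, beside 152 and 46.3 CPM under congo red. For CopciAB_64123.T0 the untreated control of that Trichoderma group, mycelium grown in the dark for 60 h, came second at 228 CPM. For CopciAB_480395.T0 starvation on water agar for 4 h came second at 133 CPM, and congo red ranked 11 of 67.

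**Figure D3:**
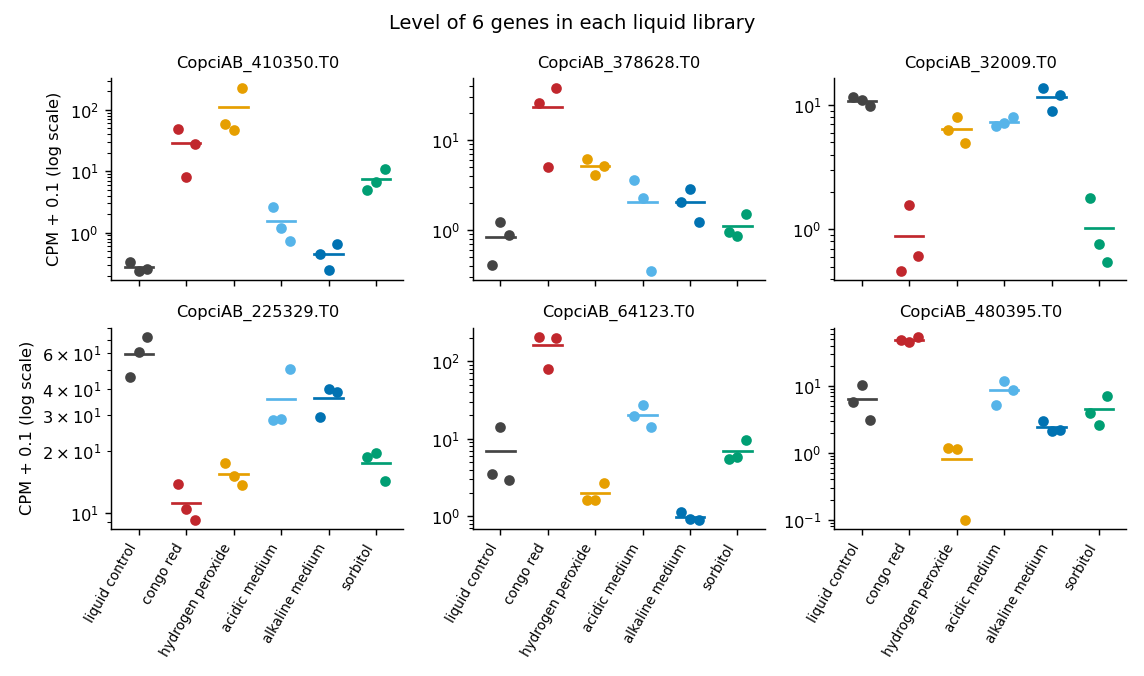
Level of the 6 named genes in each of the 18 liquid libraries, as CPM + 0.1 on a log axis. Points are libraries and lines are group means of 3. CopciAB_64123.T0 and CopciAB_480395.T0 lie highest in congo red, CopciAB_410350.T0 is higher still in peroxide, and the lowered CopciAB_32009.T0 reaches the same low range in congo red and sorbitol.

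Which of these changes set congo red apart from the other liquid stresses was tested by contrasts between treated groups, in which the control plays no part. The contrasts rest on the same 3 congo red libraries that chose the genes, so the counts are given as a description. Of the 578 raised genes, congo red was called higher than alkali for 321 (55.5%, beside 5.25% of all tested genes), than acid for 242 (41.9%, beside 3.57%), than sorbitol for 166 (28.7%, beside 3.82%) and than peroxide for 162 (28.0%, beside 7.73%). Congo red was called lower than sorbitol for 108 of them (18.7%, beside 4.78% of all genes) and than peroxide for 63 (10.9%, beside 11.1%). It was called lower than acid for 3 (0.519%, beside 2.48%) and than alkali for 0 (beside 2.55%). In that last contrast edgeR gave 2 of them a lower value at an unadjusted p under 0.05, and DESeq2 called 0. Sorbitol and peroxide were each called above congo red for some of these genes and below it for others. The genes were chosen for high values in these congo red libraries. That choice favours calls of congo red above any other group and disfavours calls below it. The shares of all genes do not correct for this, so nothing is concluded from the differences between the shares. Sorbitol had been applied for 2 h and congo red for 3 h, so treatment and time cannot be told apart in that contrast.

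The falls were followed through the same contrasts, where the choice of genes with low congo red values favours calls of congo red below another group. Of the 336 lowered genes, congo red was called lower than alkali for 129 (38.4%, beside 2.55% of all tested genes), than acid for 99 (29.5%, beside 2.48%), than peroxide for 77 (22.9%, beside 11.1%) and than sorbitol for 13 (3.87%, beside 4.78%). It was called higher than sorbitol for 17 (5.06%, beside 3.82% of all genes), than peroxide for 9 (2.68%, beside 7.73%), than acid for 1 (0.298%, beside 3.57%) and than alkali for 1 (0.298%, beside 5.25%). The shares against sorbitol were near those of all genes in both directions. Against sorbitol 306 of the 336 were not called in either direction, and the median difference over the 336 was 0.0997 on the log2 scale. A call that was not made does not show that the levels were equal.

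Each stress can also be set beside congo red through its own comparison with the liquid control, which all of them share. The median log2 change of the 578 raised genes was 1.44 in sorbitol, 1.3 in peroxide, 0.653 in acid and 0.419 in alkali, where the medians of all genes were between 0.0135 and 0.0582. Of the raised genes, 303 were called higher than the control in sorbitol (52.4%, beside 10.7% of all genes), 333 in peroxide (57.6%, beside 15.5%), 73 in acid (12.6%, beside 1.89%) and 41 in alkali (7.09%, beside 0.838%). Of the lowered genes, 254 were called lower in sorbitol (75.6%, beside 7.07%), 177 in peroxide (52.7%, beside 8.95%), 74 in acid (22.0%, beside 1.65%) and 27 in alkali (8.04%, beside 1.07%). Because the control libraries are the same, a gene that happened to be low or high in them appears changed in all of these comparisons.

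**Figure D4:**
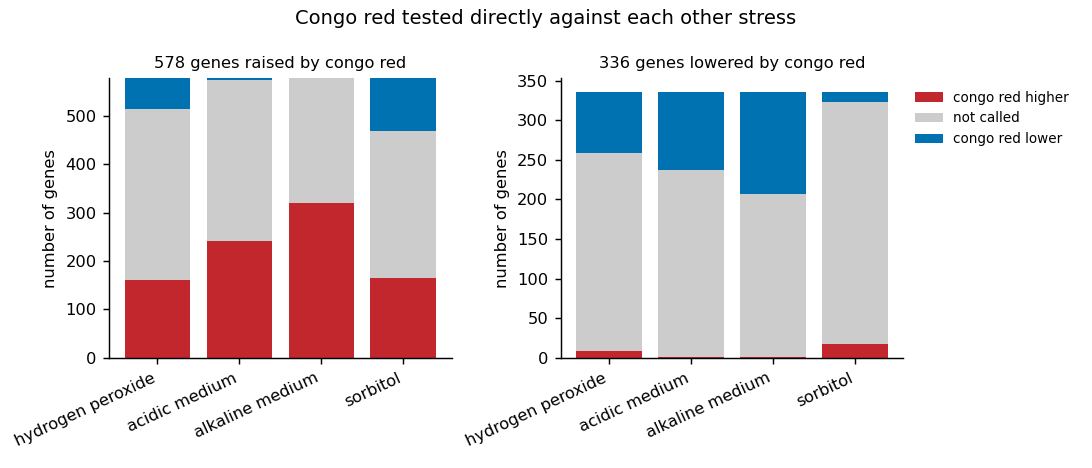
Number of the 578 raised genes (left) and the 336 lowered genes (right) for which congo red was called higher (red), not called (grey) or called lower (blue) in the direct contrast with each other liquid stress. Alkali has the most red in the raised list, with 321 genes, and sorbitol the most grey in the lowered list, with 306.

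Counted per gene, 127 of the raised genes were above none of the 4 stresses, 187 above 1, 126 above 2, 100 above 3 and 38 above all 4. Of the lowered genes, 140 were below none, 103 below 1, 64 below 2, 29 below 3 and 0 below all 4. The raised genes split in several ways between sorbitol and peroxide. For 75 of them congo red was above both, for 205 it was not called apart from either, for 75 it was below sorbitol alone and for 29 below peroxide alone.

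The 38 genes that were above the control and above every other stress (0.346% of all tested genes, with 0 genes or 0% in the lower direction) were higher in congo red than in each other liquid group by a test of each difference. They were not silent in the other stresses: against the shared control, 10 of the 38 were called higher in peroxide, 7 in sorbitol, 3 in acid and 0 in alkali, and 5, 1, 0 and 1 were called lower. In the lower direction edgeR put 24 genes below the control and all 4 stresses at an unadjusted p under 0.05, and DESeq2 called 1. Their log2 changes against the control ran from 1.17 to 8.16 with a median of 2.92. For 28 of them every congo red value lay above all other 15 liquid libraries, as it did for 0.92% of all tested genes, and the calls that chose the 38 favour such genes, so nothing is read from that count. Most were low genes: 29 stood under 10 CPM in the control, and the means under congo red ran from 2.93 to 1112 CPM, with 7 at 100 CPM or more. Their summed level was 684, 582 and 529 CPM in the control and 4246, 2799 and 4570 CPM under congo red. The number depended on single libraries: 21 genes passed all 5 contrasts without congo red replicate 3 and 60 without replicate 2, with 0 and 5 genes in the lower direction. In this list 12 genes overlapped another gene, so part of their reads could belong to the neighbour.

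After the gene on scaffold 1 described above, the most abundant of the 38 was a gene of scaffold 3 at 2294607 to 2296715, with 240.0, 196.5 and 159.8 CPM in the control and 821.0, 812.6 and 440.6 CPM under congo red. A second gene of scaffold 3, at 788249 to 789413, went from 17.86, 19.68 and 14.76 CPM to 287.0, 109.3 and 397.5 CPM. In both genes all congo red values lay above all control values. In the gene at 788249 to 789413, congo red replicate 2 lay below peroxide replicate 1 at 113.7 CPM, and peroxide was itself called above the control. A gene of scaffold 11 at 1465733 to 1468648 went from 75.28, 57.91 and 55.6 CPM to 274.0, 144.7 and 283.0 CPM, while acid, alkali, peroxide and sorbitol had means of 49.92, 66.39, 54.51 and 103.7 CPM.

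The called genes were then followed in comparisons that share no library with congo red or its control. Each was set against the control that its title names, in the same strain, and the share of all tested genes called there is given beside each share. Comparisons that have a control in common were fitted together and are not independent of each other. Calcium, copper and voriconazole share 1 control, heat shock, freezing, sealed plates and sclerotia another, drought, cold and cutting another, and starvation and the meeting with Trichoderma another. Under calcium (200 mM for 24 h) most of the raised genes that were called went in the congo red direction: 222 of 566 tested were higher (39.2%, beside 10.5% of all genes) and 32 lower (5.65%, beside 7.85%), with a median log2 change of 1.03. The cobalt chloride cultures (2 mM) were 7 days old and were given light and then kept in darkness. In cobalt 100 of 549 were higher (18.2%, beside 2.93%) and 12 lower (2.19%, beside 2.99%), so that the raised genes made up 32.3% of the cobalt list. Voriconazole (0.5 µg/ml for 48 h), an antifungal that blocks ergosterol synthesis, had 131 of 566 higher (23.1%, beside 5.56%) and 15 lower (2.65%, beside 3.96%).

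The raised genes were also followed on meeting Trichoderma, in copper and in freezing. Where the hyphae had just met Trichoderma, 167 of 565 raised genes were higher (29.6%, beside 7.9% of all genes) and 21 lower (3.72%, beside 4.99%). Copper sulfate (2 mM for 6 h) had 106 higher (18.7%, beside 5.04%) and 17 lower (3%, beside 3.22%). Freezing of 6 day old mycelium at -20 °C for 30 min had 172 of 564 higher (30.5%, beside 8.81%) and 33 lower (5.85%, beside 7.23%).

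In the next comparisons more of the raised genes were again higher than lower. Sclerotia, the hardened resting bodies of the mycelium, had grown for 4 weeks, and their titles say that slight mycelium contamination is possible. In sclerotia 250 of 564 were higher (44.3%, beside 19.3%) and 104 lower (18.4%, beside 21.5%). Heat shock of 6 day old cultures at 47 °C for 2 h had 230 higher (40.8%, beside 27.5%) and 126 lower (22.3%, beside 28.4%). For a carbon dioxide treatment, plates were sealed after inoculation and kept for 6 days at 28 °C in the dark. These sealed plates had 131 higher (23.2%, beside 6.46%) and 50 lower (8.87%, beside 4.86%). In drought 123 of 550 were higher (22.4%, beside 9.82%) and 52 lower (9.45%, beside 7.71%), and at 4 °C for 4 h 136 were higher (24.7%, beside 10.4%) and 52 lower (9.45%, beside 5.27%). After a move to water agar, 104 of 565 were higher (18.4%, beside 8.01%) and 74 lower (13.1%, beside 6.38%) at 2 h, and 148 higher (26.2%, beside 14.9%) and 102 lower (18.1%, beside 10.9%) at 24 h. In hypoxia, 9 of 518 were higher (1.74%, beside 0.585%) and 5 lower (0.965%, beside 0.536%).

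Cutting was the 1 comparison of these 15 in which more raised genes were lower than higher. In mycelium cut with a knife and left for 3 h, 66 of 550 raised genes were higher (12%, beside 12.2% of all genes) and 124 lower (22.5%, beside 15.7%), with a median log2 change of -0.161. The share that rose was thus that of all genes, and a larger share fell. Of the 38 genes above every liquid stress, 35 were tested after cutting, and 12 were higher (beside 12.2% of all genes), 0 lower (beside 15.7%) and the others not called, with a median of 0.779. On meeting Trichoderma 14 of 37 of them were higher (beside 7.9%) and 0 lower (beside 4.99%), with a median of 0.94. At an unadjusted p under 0.05 edgeR placed 5 of them lower after cutting and 1 on meeting Trichoderma, and DESeq2 called 0 and 1. Calcium had 16 higher and 5 lower of 35 (beside 10.5% and 7.85% of all genes), voriconazole 12 higher and 2 lower of 35 (beside 5.56% and 3.96%), and sclerotia 14 higher and 13 lower of 36 (beside 19.3% and 21.5%). Sealed plates had 2 higher and 9 lower of 36 (beside 6.46% and 4.86%), and 24 h on water agar 6 and 10 of 37 (beside 14.9% and 10.9%). Freezing had 5 and 6 of 36 (beside 8.81% and 7.23%), and drought 7 and 8 of 35 (beside 9.82% and 7.71%). Heat shock had 14 and 8 of 36 (beside 27.5% and 28.4%), and cold 6 and 4 of 35 (beside 10.4% and 5.27%). Cobalt had 4 and 1 of 33 (beside 2.93% and 2.99%), and copper 3 and 0 of 35 (beside 5.04% and 3.22%). After 2 h on water agar 4 were higher and 3 lower of 37 (beside 8.01% and 6.38%). In hypoxia 0 of 32 were higher and 0 lower (beside 0.585% and 0.536%). No difference between the 2 lists was tested.

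The lowered genes were followed in the same comparisons, again beside the share of all genes called lower. They fell most often in sclerotia, with 192 of 331 (58%, beside 21.5%), and in heat shock, with 177 (53.5%, beside 28.4%). Calcium lowered 120 of 330 (36.4%, beside 7.85%), drought 118 of 331 (35.6%, beside 7.71%) and freezing 99 of 331 (29.9%, beside 7.23%). Starvation for 24 h had 70 of 333 higher and 70 lower (21% each, beside 14.9% higher and 10.9% lower of all genes). After cutting 66 of 331 were lower (19.9%, beside 15.7%) and 43 higher (13%, beside 12.2%), a share of rises near that of all genes. More of the lowered genes were higher than lower in 3 comparisons. On meeting Trichoderma 43 of 333 were higher (12.9%, beside 7.9%) and 38 lower (11.4%, beside 4.99%), and after 2 h on water agar 49 were higher (14.7%, beside 8.01%) and 34 lower (10.2%, beside 6.38%). In hypoxia 6 of 326 were higher (1.84%, beside 0.585%) and 3 lower (0.92%, beside 0.536%). In cold 47 of 331 were lower (14.2%, beside 5.27%) and 45 higher (13.6%, beside 10.4%). The comparisons not named here had more of the lowered genes lower than higher.

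**Figure D5:**
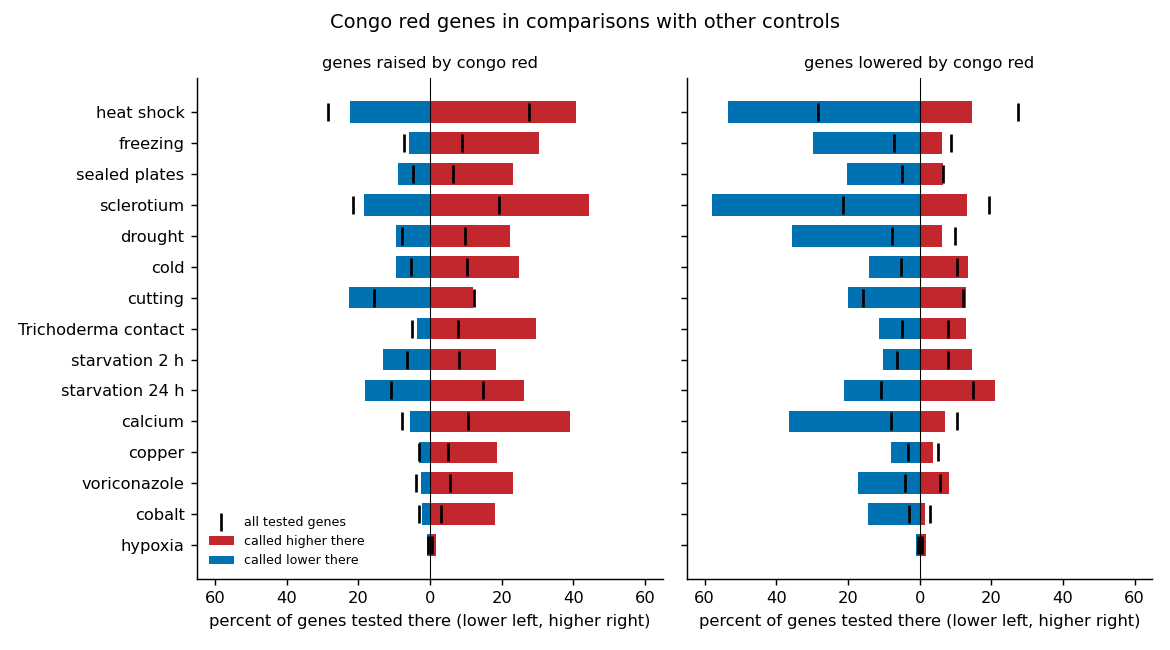
Share of the raised genes (left) and the lowered genes (right) called lower (blue, to the left) or higher (red, to the right) in 15 comparisons that share no library with congo red or its control, as percent of the list's genes tested there. Black ticks mark the same shares over all tested genes. Calcium reaches 39.2% higher for the raised genes, and after cutting more of them were lower (22.5%) than higher (12%).

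Over the 67 groups of the series, congo red was seldom the condition in which a raised gene was most abundant. It held the highest group mean for 15 of the 578 raised genes (2.6%, beside 0.246% of all tested genes). That count became 24 with edgeR's relative log expression (RLE) factors in place of unscaled CPM. It was among the top 5 groups for 133 of them (23.0%, beside 3.4%). The median rank of congo red was 12 and that of the liquid control 54. Of the raised genes, 46 peaked in sorbitol (7.96%, beside 1.11% of all tested genes), 45 in peroxide (7.79%, beside 3.16%) and 42 in calcium (7.27%, beside 1.93%). Resting oidia were the peak of 52 raised genes (9.0%), a smaller share than the 15.7% of all tested genes that peaked there. Among the 38 genes above every liquid stress, 9 peaked in congo red and 24 had it in the top 5. No lowered gene peaked there, and the median rank of congo red in that list was 53. The liquid control and the other liquid stresses are among the 67 groups. The calls that chose the lists therefore already favoured these ranks, and that no lowered gene peaked in congo red was nearly fixed by the choice.

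Genes that mark other cell forms of this fungus were summed in each library, since a culture may hold spores or aggregates. Each set was made of 100 genes chosen on other libraries of the series, by fold over a related mycelium or germling. In the liquid fit 5.26% of all tested genes were called higher and 3.06% lower, the shares against which the counts of each set stand. The resting oidia set, asexual spores that hyphae bud off, summed to 390.7, 524.6 and 379.9 CPM in the control and 641.2, 676.9 and 729.9 CPM under congo red, beside 116987.7 to 171466.2 CPM in oidia themselves, and 7 of its genes were at 0 in all 6 libraries. Of its 52 tested genes 8 were called higher and 2 lower, and their part in the response was not tested. The basidiospore set had 3 higher and 2 lower of 61 tested, and summed to 2184.5 to 4695.7 CPM in the control and 1247.9 to 2255.7 CPM under congo red, with 1 gene at 0. The hyphal knot set had 15 higher and 10 lower of 78, at 5705.5 to 7266.5 and 4546.2 to 6414.7 CPM, with 0 genes at 0.

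The sclerotium set was the one that tilted most. Of its 83 tested genes 26 were called higher and 4 lower under congo red, with a median log2 change of 1.12, beside a median of 0.0457 over all genes. Its sum was 6628.2, 35911.8 and 10056.5 CPM in the control and 17382.3, 15163.4 and 12213.4 CPM under congo red, beside 162834.4 to 227042.7 CPM in sclerotia, and 1 of its genes was at 0 in all 6 libraries. Control replicate 2 held the highest sum of all 6, so the groups overlapped on the sum. The part of these genes in the response was not tested.

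Called genes had fewer exons and shorter coding regions than all tested genes at the median. Raised genes had a median of 4 exons, lowered genes 4 and all tested genes 5, and the median coding length was 1011 bp, 973.5 bp and 1191 bp. Coding regions under 600 bp made up 22.5% of the raised, 29.2% of the lowered and 20% of all genes. By class of coding length, 5.92% of the short genes, 6.09% of those from 600 bp to under 1500 bp and 3.93% of those of 1500 bp or more were raised, and 4.46%, 3.23% and 2.1% were lowered. The median annotated 3′ UTR measured 130.5 bp in raised genes, 174 bp in lowered genes and 139 bp in all genes. Among the raised genes 26.6% overlapped another gene, and among the lowered genes 28.9%, beside 31.7% of all tested genes.

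Called genes lay next to each other more often than their overall share. The next tested gene on the scaffold was also raised for 68 of the 578 raised genes (11.8%, beside 5.26% of all genes), and also lowered for 29 of the 336 lowered genes (8.63%, beside 3.06%). Scaffold 11 held the highest share of raised genes among the large scaffolds, 56 of 508 (11%), and scaffold 5 the lowest, 37 of 1201 (3.08%). Neighbours that overlap or are copies can share reads, which was not separated from joint change.

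Runs of 3 or more adjacent genes moving in 1 direction were few. The longest was a run of 6 lowered genes on scaffold 10, at 1806687 to 1817545, whose summed means went from 497 to 192 CPM with log2 changes of -1.64 to -1.09 and no overlap among the gene models. Their sum was 155 CPM in sorbitol and 217 in peroxide. The abundant pair on scaffold 10 belonged to a run of 4 lowered genes at 1047231 to 1052569, which went from 63500 to 27900 CPM. A run of 4 raised genes on scaffold 3, at 2725261 to 2731317, went from 675 to 1510 CPM, beside 1650 CPM in sorbitol and 680 CPM in peroxide. The other runs held 3 genes each, lowered on scaffolds 1 and 4 and raised on scaffolds 1, 3, 8 and 11.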

How the data were processed

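The deposited table holds expected counts for each gene, which the authors did not normalize, and comes with their CopciAB V2 annotation. The submitters' processing notes name STAR 2.6.1a and featureCounts. Not given in the sources used here: the featureCounts version and its settings for strand and multiply mapped reads. Per the labels' protocols, QuantSeq 3′ libraries were read from 1 end. Among nonzero counts, as deposited, 19.9% had a fraction (tolerance 0). Antisense neighbours may share reads where strand was not used. Of 13617 identifiers, 0 matched the reference table, so planned lists by product name could not be applied and no gene name or sequence is given.

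Counts were rounded to whole numbers. The 18 liquid libraries shared a single fit in edgeR (version 4.0.16, R version 4.3.3): TMM factors, genes kept by filterByExpr (minimum count 10), robust quasi-likelihood tests. Calls needed an adjusted p (Benjamini-Hochberg, over all tested genes) below 0.05 and at least a 2-fold difference. CPM of the liquid fit use TMM-scaled library sizes; series-wide group means and marker sums use unscaled CPM. Log2 CPM used a prior count of 2. A standard error was taken from the log2 change and its F statistic. Comparisons with other controls were separate fits of the same kind. The scripts were tested on simulated data.

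Named genes were those called, with groups that did not overlap, a mean of 10 CPM or more on the higher side, no overlapping gene and under 10% of values not whole; the 2 with the largest fold in each direction were taken in each of 2 comparisons. Between libraries of a group, the chi-square per degree of freedom was 38.4 to 112 for congo red and 48.6 to 94.5 for the control. Each library was counted as its own replicate. This spread does not show that cultures were separate, since it may be technical. Alternatives were DESeq2 1.42.0, RLE factors in edgeR, other filters and folds, a replicate block and leaving out each library. The members, lists and rules were chosen with earlier results of these data known. The protocols name no molecular identifiers, so reads may be copies of 1 molecule. The growth protocol document was not used here.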

Additional observations from a re-analysis of the deposited data

How the results depend on the processing

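Across all alternatives no gene called in congo red against the control was called in the opposite direction, and the 92 values of the named genes kept their direction and their call. The counts moved with the threshold, the exclusion of genes and the library left out. Without genes that overlap another or have 10% or more values not whole, 2052 genes remained for testing, and calls fell to 234 against the control (156 higher, 78 lower), 388 against peroxide, 178 against acid, 187 against alkali, 243 against sorbitol and 120 against the mean of the 4 stresses, with 13 genes above all; fewer genes were tested there. An exclusion at 50% of values not whole, chosen after seeing the data, left 541 higher and 333 lower. At a fold of 1.5 the calls were 1398 (595 lower) against the control, 3420 against peroxide, 1309 against alkali, 1616 against sorbitol and 778 against the mean, with 3 genes below all. At a fold of 4 they were 258 (211 higher, 47 lower), 545, 244 against sorbitol, 232 against acid, 231 against alkali and 95 against the mean, with 12 above all. DESeq2 called 643 higher and 411 lower, with 1 gene below all 4 stresses, and counts in comparisons with small lists (hypoxia, copper) moved most. Raised genes peaking in congo red numbered 24 with RLE factors.

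Leaving out 1 library gave 696 to 1040 calls against the control (430 to 647 higher, 256 to 393 lower), 1873 to 2138 against peroxide, 526 to 710 against acid, 577 to 1189 against alkali and 858 to 985 against sorbitol. Against the mean of the 4 stresses it gave 254 (without congo red replicate 3) to 509, and for genes above all 21 to 60, below all 0 to 5.

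Same-numbered libraries did not deviate together (correlations 0.0134, -0.219 and -0.254), and a pair with unlike numbers reached 0.32. With 3 libraries in each group these values cannot decide whether the numbers pair the samples, and the labels do not say. With a replicate block the fit called 543 higher and 328 lower. The 6 libraries alone gave 467 higher and 291 lower, and 300 calls (209 higher, 91 lower) with the block; fewer residual degrees of freedom remained in that fit.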
